A study of Mus musculus with 12 samples.

Results

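The mitosis genes are 39 genes with roles in cell division, chosen by symbol, that were read in RNA-seq data from common lymphoid progenitors (CLPs) of mice with and without the X-linked long noncoding RNA *Firre*. All 39 were found among the 47643 genes of the deposited table. All had a mean of at least 1 TPM, a unit in which reads are scaled to gene length and to the same library total, over the 12 libraries, so that each was among the 14479 genes tested. CLPs are bone marrow progenitors that give rise to B, T, and natural killer cells, and many of them divide. A dividing cell enters mitosis when cyclin B activates CDK1, and it then condenses its chromosomes, builds a spindle, attaches each chromosome to it, and holds back separation until the spindle checkpoint is satisfied. The anaphase-promoting complex (APC/C) then marks securin and the cyclins for destruction, sister chromatids part, and the cell divides. Because most of these genes are transcribed late in the cycle, their RNA is widely used as a sign of dividing cells.

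WT mice, mice lacking the whole *Firre* gene body (∆*Firre*, from a germline deletion made with CMV-Cre), and dox-fed *Firre* rescue mice gave 4 libraries each, 1 per animal. The *Firre* rescue mice carried the deletion as well, together with a *Firre* cDNA transgene behind a tet-responsive element and a CMV minimal promoter, and an rtTA driver that is not restricted to CLPs. All animals were male and 27 to 32 weeks old, and the ∆*Firre* allele had been backcrossed to C57BL/6J. CLPs were sorted from bone marrow as lineage-negative cells with low Sca1, low cKit, and IL7Rα. The rtTA driver, described for *Firre* rescue mice only, came from a B6N.FVB(Cg) line and was kept by breeding to C57BL/6J. Only *Firre* rescue mice are described as fed dox, so transgene, driver, strain background, and diet cannot be told apart.

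Reads recovered from the spacing of the TPM values came to between 10792435 and 17873415 for WT mice, between 14099241 and 17266989 for ∆*Firre* mice, and between 25307209 and 32016025 for *Firre* rescue mice. Each mitosis gene had at least 113 reads in every library. The *Firre* rescue libraries carry a range of library numbers of their own, so the group cannot be told apart from that range or from their greater depth. *Firre* was at 25.2 to 31.6 TPM in WT, was listed at 0 in every ∆*Firre* library, and was at 59.9, 135, 63.0, and 174 TPM in the *Firre* rescue libraries. All 8 CLP markers, among them *Il7r*, *Flt3*, *Dntt*, and *Rag1*, were detected in every library. *Cd34* was lower in every *Firre* rescue library (166 to 188 TPM) than in any other (207 to 260 TPM), and *Rag1* was higher (277 to 334 TPM against at most 251 TPM). Markers of other cells were present too, and for some of these the summed TPM overlapped between the groups. In WT, ∆*Firre*, and *Firre* rescue mice, the neutrophil markers summed to 284 to 1239, 178 to 1549, and 129 to 1422 TPM. The erythroid markers summed to 21.1 to 123, 46.2 to 167, and 31.2 to 184 TPM. The plasmacytoid dendritic cell markers summed to 329 to 451, 337 to 382, and 274 to 378 TPM. The summed TPM of 8 B progenitor markers was 239 to 478 for WT mice, 311 to 426 for ∆*Firre* mice, and 965 to 1566 for *Firre* rescue mice, and each of the 8 was higher in every *Firre* rescue library than in any other. The summed TPM of 4 basophil and mast cell markers was 958 to 8343 for WT mice, with mouse 6 at the top, 2720.1 to 3978 for ∆*Firre* mice, and 63.5 to 142 for *Firre* rescue mice, where *Prss34* was at 0 in 2 and *Fcer1a* at 0 in 3 of 4. The 5 plasma cell markers summed to 820.3 to 1534, 1561 to 3343, and 214 to 359 TPM. Most of that sum outside *Firre* rescue was *Igj* (619 to 3110 TPM, against 1.18 to 195 TPM in *Firre* rescue), whereas *Sdc1* of the same list was at 70.5 to 104 TPM in *Firre* rescue and 43.0 to 58.1 TPM in ∆*Firre* libraries. The 5 ILC2 markers summed to 72.6 to 109, 86.7 to 109, and 42.1 to 66.3 TPM, and the T and NK cell markers summed to 110.0 to 400, 183 to 334, and 40.3 to 71.7 TPM, with *Cd3e* at or below 0.732 TPM throughout. In sorted populations read in bulk, more cells in mitosis and more RNA of these genes per cell cannot be told apart.

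The 39 genes were first compared with one another in WT CLPs. *Top2a*, which encodes the topoisomerase that untangles sister DNA, had the highest level at 339 ± 35.4 TPM (SD, n = 4). The condensin subunit gene *Smc4* followed at 325 ± 46.4 TPM, within the spread of *Top2a*, and the proliferation marker *Mki67* at 267 ± 36.9 TPM. The motor genes *Kif11* (172 ± 20.8 TPM) and *Kif23* (163 ± 17.4 TPM) and the cyclin gene *Ccnb2* (154 ± 27.4 TPM) came next and did not differ from each other beyond their SD. At the low end were *Espl1* at 17.2 ± 4.94, *Pttg1* at 21.7 ± 4.94, and *Cdc25c* at 22.03 ± 4.93 TPM, which encode the protease separase, its inhibitor securin, and a phosphatase that activates CDK1. These 3 also overlapped in their spread.

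Most of the 39 genes varied together from library to library. The median pairwise Pearson correlation of log2(TPM + 1) over the 12 libraries, with each group's mean removed, was 0.33 among the 741 pairs of mitosis genes and 0.04 among all genes tested. Of these pairs, 80.6% were above 0, against 53.9% of pairs of all genes tested, as a description of libraries that share depth and composition. The lowest pair was at −0.77, and *Ccna2* and *Cdc25c* had a mean correlation with the other members below 0 (−0.10 and −0.12). Among ∆*Firre* libraries, that of mouse 8 was the highest for 27 of the 39 genes, against 20.5% of all genes tested. Among WT libraries, that of mouse 11 was the highest for 20 and that of mouse 8 the lowest for 21 of the 39, against 22.5% and 34.3% of all genes. Among *Firre* rescue libraries, that of mouse 3 was the highest for 17 and that of mouse 2 the lowest for 22, and the same libraries were also the highest and lowest for 40.2% and 39.6% of all genes. The coefficient of variation of a gene within a group had a median of 12.3% for WT mice, 11.2% for ∆*Firre* mice, and 14.9% for *Firre* rescue mice. It ranged from 2.32% for *Aurkb* in WT to 42.6% for *Cdc25c* in *Firre* rescue libraries.

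Many late cell cycle genes share short promoter elements, a CCAAT box and the cell cycle homology region TTTGAA, and the promoters were searched for these letters because most of the genes varied together. RefSeq windows of GRCm38.p6 from 250 bases before to 50 bases after the start of transcription matched 33 of the 39 genes. On either strand, CCAAT, which reads ATTGG on the opposite strand, was in 27 of the 33 windows (81.8%) and in 41.1% of the windows of all 27025 genes. TTTGAA, which reads TTCAAA on the opposite strand, was in 25 (75.8%), against 20.2% of all windows, and both were in 24 (72.7%), against 7.97%. Of the genes whose values in each library are given here, 12 hold both motifs. The stretches are shown for the 8 in which they end within 30 bases after the start, which leaves out *Aurka*, *Bub1b*, *Cdca3*, and *Plk1*, from 5 bases before the outer motif to 5 bases after. Where a window holds several copies, the shortest stretch with both motifs is shown, with the motifs in capitals and the strand that of the gene.
Cdc20: tgggtTTTGAAggagCCAATgaacg
Ube2c: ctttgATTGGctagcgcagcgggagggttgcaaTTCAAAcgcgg
Ccnf: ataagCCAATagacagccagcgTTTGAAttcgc
Kif11: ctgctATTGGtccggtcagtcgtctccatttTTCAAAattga
Kif23: cgctgATTGGcctgTTTGAAatgcg
Cenpa: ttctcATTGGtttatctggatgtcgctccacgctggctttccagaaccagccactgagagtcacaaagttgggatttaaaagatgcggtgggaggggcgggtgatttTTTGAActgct
Top2a: ttgctATTGGtccatTTTGAAgattc
Smc2: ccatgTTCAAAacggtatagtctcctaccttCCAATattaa
On the plus strand of GRCm38.p6, these lie at chr2:164769867-164769910 for *Ube2c*, chr19:37376332-37376373 for *Kif11*, chr5:30666795-30666912 for *Cenpa*, and chr4:52439071-52439111 for *Smc2*. On the minus strand they lie at chr4:118437342-118437366 for *Cdc20*, chr17:24251529-24251561 for *Ccnf*, chr9:61946787-61946811 for *Kif23*, and chr11:99024358-99024383 for *Top2a*. A match shows only that the letters are in the window. Windows with both motifs were found for 9 of the 13 genes with a window that were higher in *Firre* rescue than in ∆*Firre* CLPs, as described below, and for 15 of the other 20.

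**Figure D1:**
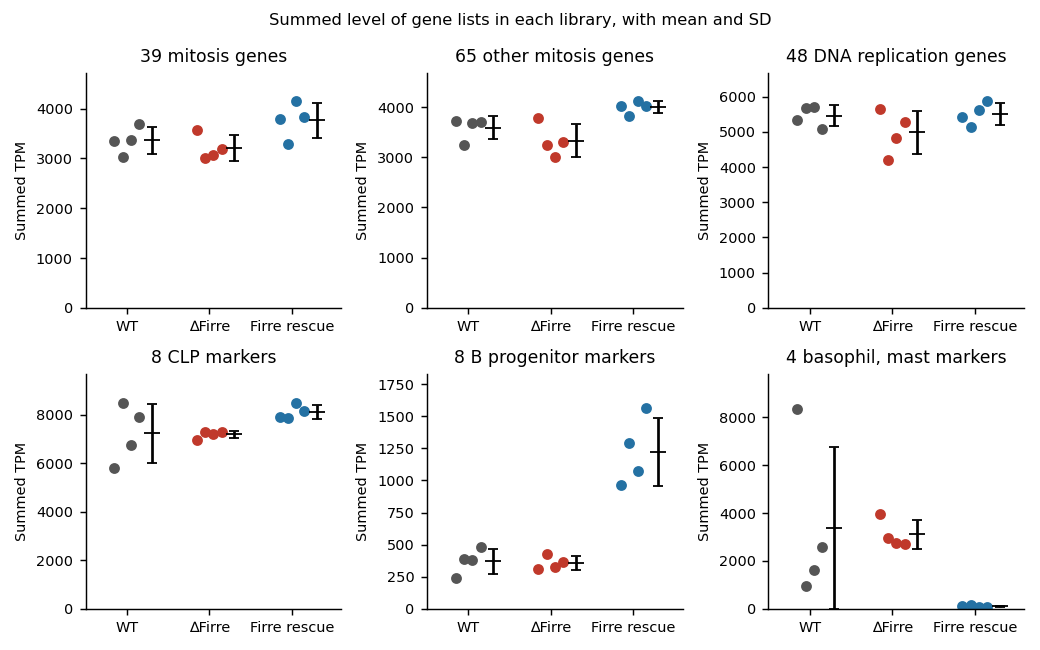
Each panel plots the summed TPM of 1 gene list (y axis, from 0) in each of 12 libraries by group, with the group mean and SD beside the points. The 39 mitosis genes sum to 3365 ± 272 TPM for WT mice, 3210.0 ± 253 for ∆*Firre* mice, and 3766 ± 356 for *Firre* rescue mice, and the B progenitor and basophil and mast cell markers differ between *Firre* rescue and the other libraries.

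Summed over the 39 genes, the level was 3365 ± 272 TPM for WT, 3210.0 ± 253 TPM for ∆*Firre*, and 3766 ± 356 TPM for *Firre* rescue mice (SD, n = 4 in each group). The plot of summed levels shows that these ranges overlapped. The lowest *Firre* rescue library, that of mouse 2, was at 3288 TPM, and the highest ∆*Firre* library, that of mouse 8, was at 3573 TPM. The 3 most abundant genes in WT, *Top2a*, *Smc4*, and *Mki67*, made up 27.7% of the sum in WT mice and 23.2% in *Firre* rescue mice, and single genes are described next.

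Whether loss of *Firre* goes with a change in these genes was asked by comparing ∆*Firre* with WT CLPs. None of the genes passed the test: 0 of 39 were called with limma at an adjusted p of 0.1 or less, against 0.0207% of all genes tested. Likewise, 0 of 39 had an unadjusted limma p under 0.05, against 5.30% of all genes, and limma-voom on the recovered reads also called 0, with 0 under an unadjusted p of 0.05. The ∆*Firre* and WT libraries overlapped for all 39 genes, whereas they did not overlap for 5.33% of all genes. The median log2 fold change was −0.07, against −0.06 over all genes tested, with 9 genes above 0 and 30 below. The median was 0.003 with median-ratio scaling, −0.01 with limma-voom, and −0.11 after the GC correction described below. With single libraries left out it ranged from −0.13 to −0.01. The 95% intervals of all 39 included 0, with bounds no lower than −0.86 and no higher than 0.75, so that a change within a gene's interval was not excluded with this number of mice.

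The 3 largest values above 0 between ∆*Firre* and WT were those of *Cdc25c*, *Ccnb1*, and *Cdca3*. *Cdc25c* was at 24.3, 26.7, 15.2, and 21.95 TPM in WT mice, 26.8, 26.96, 24.8, and 22.7 in ∆*Firre* mice, and 43.5, 27.4, 16.8, and 21.4 in *Firre* rescue mice, in the order of the mouse numbers 6, 8, 10, and 11 for WT, 8, 9, 11, and 12 for ∆*Firre*, and 1, 2, 3, and 4 for *Firre* rescue, an order used for all such values. Its ∆*Firre* libraries lay close together near the top of the WT range, those of mice 8 and 9 just above it, and the log2 fold change of ∆*Firre* over WT was 0.22 (SE 0.25). *Ccnb1*, the cyclin B1 gene, was at 0.15 (SE 0.12) and *Cdca3*, which encodes a trigger of mitotic entry, at 0.10 (SE 0.10). At the other end, *Pttg1*, the securin gene, was at 20.7, 16.1, 22.03, and 28.04 TPM in WT mice, 13.2, 20.2, 22.6, and 13.7 in ∆*Firre* mice, and 10.9, 14.3, 21.5, and 21.5 in *Firre* rescue mice. It was low in the ∆*Firre* libraries of mice 8 and 12 and within the WT range in the other two, and came to −0.31 (SE 0.25) on the log2 scale. *Ccnf*, the gene of an F-box protein of a ubiquitin ligase, was at −0.24 (SE 0.19), and *Kif2c*, the gene of a microtubule-depolymerizing kinesin, at −0.23 (SE 0.21). The limma adjusted p of these and of the other mitosis genes was no lower than 0.965. Leaving out 1 library in turn gave 0.06 to 0.31 for *Cdc25c*, 0.08 to 0.22 for *Ccnb1*, and 0.04 to 0.17 for *Cdca3*. The same ranges were −0.44 to −0.19 for *Pttg1*, −0.35 to −0.10 for *Ccnf*, and −0.39 to −0.08 for *Kif2c*.

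WT and ∆*Firre* libraries came in 2 ranges of library numbers, each with 2 libraries of both groups. Within the lower range, the 39 genes had a median log2 fold change of ∆*Firre* over WT of 0.02, with 21 genes above 0, and within the higher range the median was −0.12, with 7 genes above 0. The sign was the same in both ranges for 17 of the 39 genes.

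**Figure D2:**
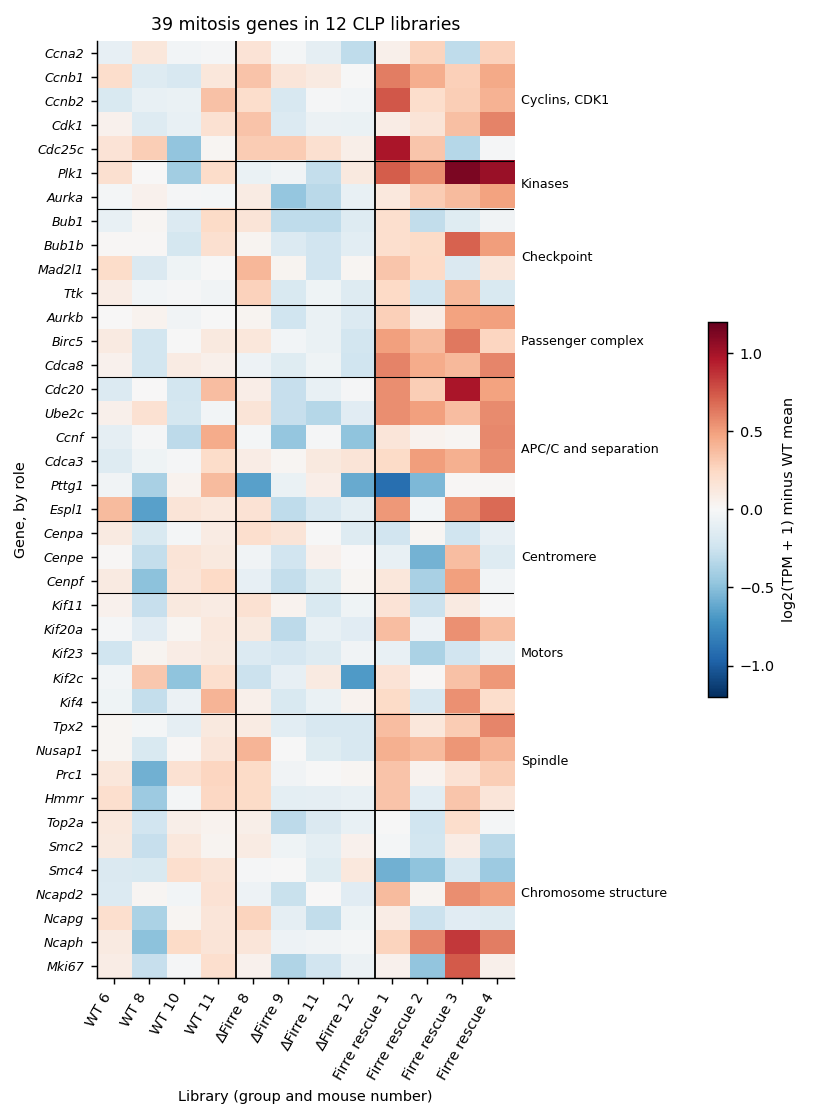
The heatmap shows log2(TPM + 1) of each of the 39 mitosis genes (rows, by role) in each of the 12 libraries (columns, by group and mouse number) minus the gene's WT mean, from blue (lower) to red (higher). *Firre* rescue columns are mostly red for *Plk1* and *Aurka*, the 2 genes listed as kinases, for the passenger complex, and for *Cdc20* and *Ube2c*. They are blue for *Smc4*, while WT and ∆*Firre* columns are mostly paler.

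Next, dox-fed *Firre* rescue CLPs were set against those of ∆*Firre* mice, which asks how they stand when *Firre* RNA comes from the transgene alone. Of the 39 genes, 16 were called higher in *Firre* rescue CLPs with limma at an adjusted p of 0.1 or less, against 8.58% of all genes tested, 1 was called lower, against 19.3%, and 22 were not called. The genes that rose were *Plk1*, *Cdc20*, *Ube2c*, *Cdca8*, *Ncaph*, *Bub1b*, *Aurka*, *Birc5*, *Ncapd2*, *Aurkb*, *Tpx2*, *Ccnb2*, *Nusap1*, *Kif20a*, *Cdca3*, and *Ccnb1*, from the largest to the smallest log2 fold change, and *Smc4* fell. The median log2 fold change of the 39 was 0.29, against −0.16 over all genes, with 32 genes above 0 and 7 below. In every *Firre* rescue library 14 of the 39 genes were above every ∆*Firre* library, against 6.31% of all genes, and *Smc4* was below, against 15.6%. By role, as ordered in the heatmap of the 12 libraries, and with no test between roles, the genes called higher were *Plk1* and *Aurka*, the 2 genes listed as kinases, and 3 of 3 passenger complex genes, 3 of 6 APC/C and separation genes, 2 of 4 spindle genes, 2 of 5 genes of cyclins, CDK1, and its phosphatase (*Cdc25c*), 2 of 7 chromosome structure genes, 1 of 4 checkpoint genes, 1 of 5 motors, and 0 of 3 centromere genes.

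*Firre* rescue CLPs were also compared with WT CLPs, a comparison that shares its *Firre* rescue libraries with the one above and is not independent of it. Here 14 of the 39 genes were called higher, against 4.82% of all genes tested, and *Smc4* was called lower, against 19.4%, with every *Firre* rescue library below every WT library, against 14.5% of all genes. The 14 were those listed above without *Aurka* and *Kif20a*. The median log2 fold change was 0.24, against −0.21 over all genes, with 30 genes above 0, and 12 genes were higher in every *Firre* rescue than in every WT library, against 3.55% of all genes. The summed B progenitor markers were higher, and the summed basophil, mast cell, plasma cell, ILC2, and T and NK cell markers lower, in every *Firre* rescue library than in any other library, as given above, and their part in these results was not tested. These calls rest on the limma null: when the spread of the null was instead taken from the middle 75% of the test statistics, where its SD came to 2.01 against ∆*Firre* and 1.93 against WT, 0 of 39 mitosis genes and 0 of 14479 genes were called in either comparison, and 1 and 0 of the 39 had an unadjusted p under 0.05.

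**Figure D3:**
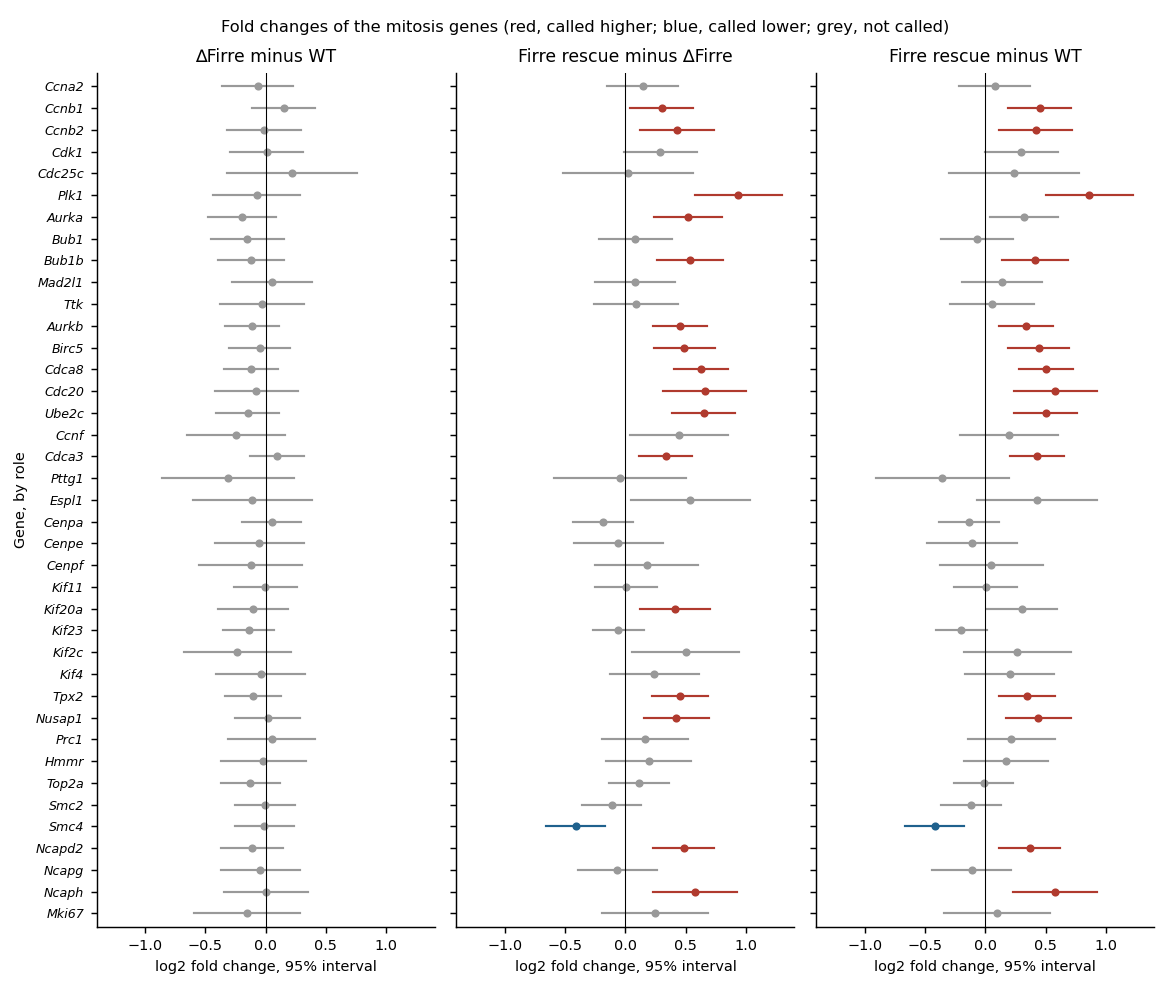
Points are log2 fold changes of log2(TPM + 1) with 95% intervals (x axis) for the 39 mitosis genes (y axis, by role) in 3 comparisons, red where called higher, blue where called lower, and grey where not called with limma. All 39 are grey between ∆*Firre* and WT, 16 are red and 1 is blue between *Firre* rescue and ∆*Firre*, and 14 are red and 1 is blue between *Firre* rescue and WT.

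Among the cyclins and their kinase, the B-type cyclins rose in *Firre* rescue CLPs. *Ccna2*, the gene of cyclin A2, which acts in S phase and at mitotic entry, was at 118, 138, 123, and 125 TPM in WT mice, 141, 124, 117, and 102 in ∆*Firre* mice, and 131, 152, 102, and 153 in *Firre* rescue mice. The groups overlapped, and *Firre* rescue over ∆*Firre* gave a log2 fold change of 0.14 (SE 0.13, limma adjusted p = 0.488). *Ccnb1* was at 57.5, 44.2, 43.2, and 54.2 TPM in WT mice, 63.03, 54.7, 53.5, and 49.3 in ∆*Firre* mice, and 76.2, 67.3, 60.6, and 68.2 in *Firre* rescue mice. Its *Firre* rescue libraries were all above WT, but the lowest, that of mouse 3, was below the ∆*Firre* library of mouse 8. *Ccnb1* was 0.30 (SE 0.12, limma adjusted p = 0.0996) against ∆*Firre*, just inside the threshold, and 0.45 (SE 0.12, limma adjusted p = 0.0249) against WT. The first call was lost without the ∆*Firre* library of mouse 9, 11, or 12, or without the *Firre* rescue library of mouse 1, 2, or 4 (limma adjusted p between 0.133 and 0.226). It was also lost with no filter on low values and with no variance trend (limma adjusted p = 0.137 and 0.134). After the GC correction described below, *Ccnb1* was at 0.53 (limma adjusted p = 0.0190) against ∆*Firre*. *Ccnb2*, the cyclin B2 gene, was at 154 ± 27.4, 152 ± 17.8, and 205 ± 35.5 TPM (SD, n = 4) for WT, ∆*Firre*, and *Firre* rescue mice. It was 0.43 (SE 0.14, limma adjusted p = 0.0530) against ∆*Firre* and 0.42 (SE 0.14, limma adjusted p = 0.0626) against WT. The first call was lost without the ∆*Firre* library of mouse 9, 11, or 12, or the *Firre* rescue library of mouse 1 (limma adjusted p between 0.102 and 0.139), and the second without the WT library of mouse 6, 8, or 10, or the *Firre* rescue library of mouse 1 or 4 (between 0.112 and 0.153). *Cdk1* was at 0.29 (limma adjusted p = 0.165; 0.40 and 0.0648 without the ∆*Firre* library of mouse 8) and *Cdc25c* at 0.02 (limma adjusted p = 0.963) against ∆*Firre*.

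*Plk1* and *Aurka*, listed as kinases, were called against ∆*Firre*. *Plk1* (ENSMUSG00000030867.7, chromosome 7, 122159435 to 122169884), which encodes polo-like kinase 1, needed for mitotic entry, spindle assembly, and cytokinesis, was at 48.7, 42.8, 31.5, and 49.8 TPM in WT mice, 40.3, 41.2, 34.7, and 46.3 in ∆*Firre* mice, and 70.9, 62.9, 94.3, and 88.3 in *Firre* rescue mice. Each *Firre* rescue library was above each WT and each ∆*Firre* library. Its mean was 1.95 times the ∆*Firre* mean and 1.83 times the WT mean, and the log2 fold change was 0.93 (SE 0.17, limma adjusted p = 0.00307) in the first comparison and 0.86 (SE 0.17, limma adjusted p = 0.00537) in the other. On TPM as deposited, no other gene of the 39 had a larger change in either comparison. *Aurka*, the gene of the spindle pole kinase Aurora A, was at 35.9, 37.7, 36.1, and 35.9 TPM in WT mice, 38.98, 26.1, 28.9, and 34.1 in ∆*Firre* mice, and 39.7, 45.2, 47.6, and 51.3 in *Firre* rescue mice. Its *Firre* rescue libraries again lay above all others, the lowest by less than 1 TPM. *Aurka* was 0.52 (SE 0.13, limma adjusted p = 0.0166) against ∆*Firre* and 0.32 (SE 0.13, limma adjusted p = 0.110) against WT, so that the second was not called, although it was without the *Firre* rescue library of mouse 1 (0.39, limma adjusted p = 0.0786). *Aurka* overlaps *Cstf1* on the genome, and the strand setting of the counting is not given in the sources used here.

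Of the spindle checkpoint genes, 1 rose. *Bub1b*, the gene of the checkpoint protein BubR1, was at 84.7, 84.5, 72.4, and 95.7 TPM in WT mice, 85.7, 74.7, 71.2, and 77.01 in ∆*Firre* mice, and 96.4, 98.4, 138, and 119 in *Firre* rescue mice. All *Firre* rescue libraries were above all others, with those of mice 3 and 4 the highest. *Bub1b* was 0.53 (SE 0.13, limma adjusted p = 0.0129) against ∆*Firre* and 0.41 (SE 0.13, limma adjusted p = 0.0434) against WT, and the second call was lost without the WT library of mouse 10 (limma adjusted p = 0.115). *Bub1*, the gene of the kinase that recruits other checkpoint proteins to kinetochores, was at 53.3, 57.9, 50.7, and 66.9 TPM in WT mice, 63.4, 45.97, 45.96, and 51.01 in ∆*Firre* mice, and 65.4, 46.3, 51.4, and 55.3 in *Firre* rescue mice. Its groups overlapped, with log2 fold changes of 0.08 against ∆*Firre* (95% interval −0.22 to 0.38) and −0.07 against WT. *Mad2l1* and *Ttk*, which encode the checkpoint proteins MAD2 and MPS1, were at 0.08 and 0.09 against ∆*Firre* (limma adjusted p = 0.750 and 0.742).

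The 39 genes include 3 of the chromosomal passenger complex, *Aurkb*, *Birc5*, and *Cdca8*. The complex corrects faulty spindle attachments and acts in cytokinesis, and these 3 genes were called higher in both comparisons. *Aurkb*, the gene of its kinase Aurora B, was at 72.5, 74.03, 70.02, and 71.7 TPM in WT mice, 73.6, 60.7, 68.3, and 64.00 in ∆*Firre* mice, and 88.1, 76.6, 101, and 102 in *Firre* rescue mice. *Birc5*, the gene of its subunit survivin, was at 55.2, 43.96, 50.9, and 55.8 TPM in WT mice, 56.4, 50.02, 48.5, and 43.98 in ∆*Firre* mice, and 72.4, 67.2, 79.8, and 61.5 in *Firre* rescue mice. For both genes every *Firre* rescue library exceeded every other library. *Aurkb* was 0.45 (SE 0.10, limma adjusted p = 0.0109) against ∆*Firre* and 0.34 (SE 0.10, limma adjusted p = 0.0422) against WT, and the second call was lost without the *Firre* rescue library of mouse 4 (limma adjusted p = 0.105). *Birc5* was 0.49 (SE 0.12, limma adjusted p = 0.0133) and 0.44 (SE 0.12, limma adjusted p = 0.0232). *Cdca8* (ENSMUSG00000028873.16, chromosome 4, 124918465 to 124936917), the gene of the subunit borealin, was at 42.2 ± 4.18, 38.6 ± 2.35, and 60.1 ± 4.33 TPM (SD, n = 4) for WT, ∆*Firre*, and *Firre* rescue mice, with no overlap between *Firre* rescue and the other libraries. It was 0.63 (SE 0.10, limma adjusted p = 0.00188) against ∆*Firre*, the lowest adjusted p of the 39 genes, and 0.50 (SE 0.10, limma adjusted p = 0.00709) against WT.

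Of the 6 genes of ubiquitination and chromatid separation, *Cdc20*, *Ube2c*, and *Cdca3* rose. *Cdc20* (ENSMUSG00000006398.15, chromosome 4, 118432901 to 118437343), the gene of the APC/C activator held back by the checkpoint, was at 67.9, 76.3, 65.3, and 98.9 TPM in WT mice, 80.5, 62.5, 71.5, and 75.2 in ∆*Firre* mice, and 113, 93.7, 151, and 107 in *Firre* rescue mice. *Ube2c* (ENSMUSG00000001403.13, chromosome 2, 164769929 to 164772902), the gene of the ubiquitin-conjugating enzyme of the APC/C, was at 79.4, 86.3, 65.3, and 74.2 TPM in WT mice, 84.7, 62.7, 59.5, and 69.01 in ∆*Firre* mice, and 112, 108, 98.7, and 113 in *Firre* rescue mice. The *Firre* rescue libraries of both genes lay above every ∆*Firre* library, and for *Cdc20* the library of mouse 2 lay below the WT library of mouse 11. *Cdc20* was 0.66 (SE 0.16, limma adjusted p = 0.0144) against ∆*Firre* and 0.58 (SE 0.16, limma adjusted p = 0.0270) against WT, and *Cdc20* overlaps *Elovl1* on the genome. *Ube2c* was 0.65 (SE 0.12, limma adjusted p = 0.00371) and 0.50 (SE 0.12, limma adjusted p = 0.0156). After the GC correction described below, *Cdc20* was at 0.43 (limma adjusted p = 0.0842) against ∆*Firre* and 0.45 (limma adjusted p = 0.0656) against WT. *Cdca3* was at 53.1, 56.8, 58.6, and 69.2 TPM in WT mice, 62.97, 60.1, 64.05, and 66.03 in ∆*Firre* mice, and 69.7, 84.2, 79.7, and 87.3 in *Firre* rescue mice. It was 0.33 (SE 0.10, limma adjusted p = 0.0391) against ∆*Firre* and 0.43 (SE 0.10, limma adjusted p = 0.0149) against WT, and each of its *Firre* rescue libraries was the higher in both comparisons.

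The other 3 genes of this role were not called. *Ccnf* was at 35.2, 37.6, 30.4, and 52.1 TPM in WT mice, 37.5, 27.4, 37.7, and 27.02 in ∆*Firre* mice, and 42.2, 39.2, 38.7, and 57.4 in *Firre* rescue mice. Its *Firre* rescue libraries exceeded the ∆*Firre* libraries by a narrow margin and overlapped those of WT, and *Ccnf* came to 0.44 (SE 0.19, limma adjusted p = 0.116) against ∆*Firre* and 0.20 (SE 0.19, limma adjusted p = 0.499) against WT. *Espl1* was 0.54 (SE 0.23, limma adjusted p = 0.118) against ∆*Firre* and 0.43 (SE 0.23, limma adjusted p = 0.222) against WT, and the first was called without the *Firre* rescue library of mouse 2 (0.69, limma adjusted p = 0.0542). After the GC correction described below, *Espl1* was at 0.26 (limma adjusted p = 0.523) against ∆*Firre*. *Pttg1*, whose values are given above, was at −0.04 against ∆*Firre* (95% interval −0.59 to 0.50) and −0.36 against WT (limma adjusted p = 0.364). Its 12 libraries ranged between 10.9 and 28.0 TPM, with the lowest and the highest in *Firre* rescue and WT.

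**Figure D4:**
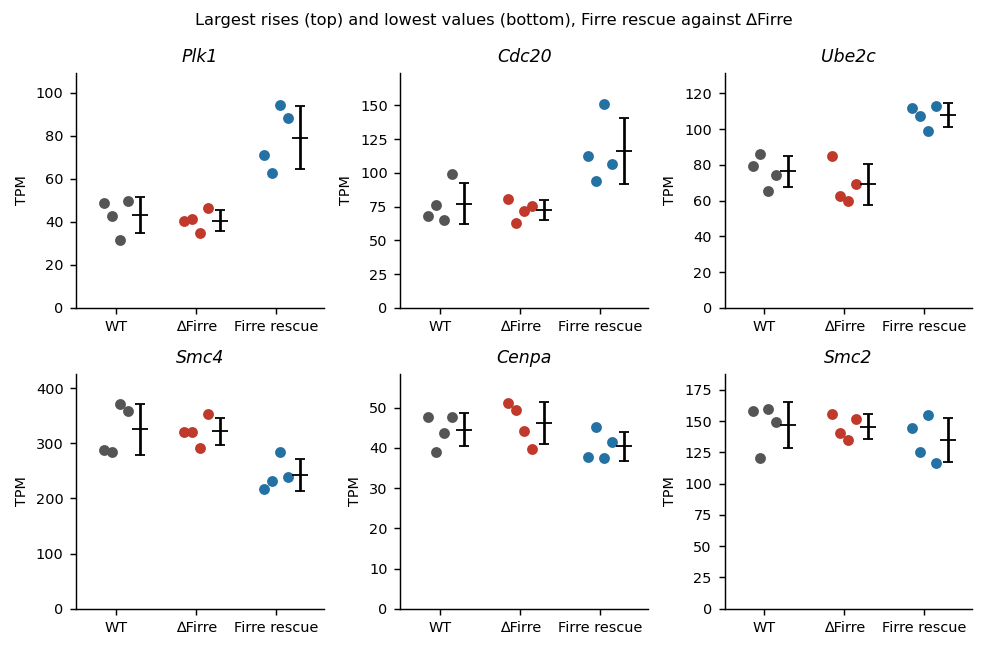
TPM (y axis, from 0) in each of the 12 libraries by group, with the group mean and SD beside the points, for the 3 mitosis genes with the largest log2 fold change of *Firre* rescue over ∆*Firre* (*Plk1*, *Cdc20*, *Ube2c*) and the 3 with the lowest (*Smc4*, *Cenpa*, *Smc2*). The 4 *Firre* rescue libraries lie above the ∆*Firre* libraries in the upper panels and below them for *Smc4*, and overlap them for *Cenpa* and *Smc2*.

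No centromere gene was called. *Cenpa*, the gene of the histone variant that marks centromeres, was at 47.8, 38.96, 43.7, and 47.7 TPM in WT mice, 51.2, 49.4, 44.3, and 39.8 in ∆*Firre* mice, and 37.7, 45.1, 37.5, and 41.4 in *Firre* rescue mice. *Cenpe*, the gene of a kinetochore motor, was at 54.9, 44.6, 60.8, and 59.3 TPM in WT mice, 53.04, 46.4, 56.6, and 54.7 in ∆*Firre* mice, and 51.3, 36.5, 70.8, and 48.8 in *Firre* rescue mice. In both genes the *Firre* rescue libraries overlapped the others, and those of *Cenpe* held both the lowest and the highest of the 12 values. *Cenpa* was −0.19 (SE 0.11, limma adjusted p = 0.278) against ∆*Firre* and −0.14 (SE 0.11, limma adjusted p = 0.445) against WT. *Cenpe* was at −0.06 (95% interval −0.43 to 0.31) and *Cenpf*, which encodes a large kinetochore protein, at 0.17 (95% interval −0.25 to 0.60) against ∆*Firre*.

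Of the 5 genes listed as motors, only *Kif20a* was called, and only against ∆*Firre*. *Kif11*, the gene of the motor that pushes spindle poles apart, was at 177, 141, 185, and 183 TPM in WT mice, 194, 176, 150.2, and 165 in ∆*Firre* mice, and 191, 143, 184, and 169.9 in *Firre* rescue mice. The 3 groups covered the same range, and its log2 fold change was 0.0028 against ∆*Firre* (95% interval −0.26 to 0.26) and 0.0019 against WT. *Kif20a*, the gene of a motor of the late spindle and cytokinesis, was at 59.7, 54.8, 61.3, and 65.9 TPM in WT mice, 65.5, 48.2, 56.6, and 54.8 in ∆*Firre* mice, and 78.1, 57.8, 88.7, and 77.5 in *Firre* rescue mice. The *Firre* rescue library of mouse 2 was within the range of the other groups and the remaining 3 were above it. *Kif20a* was 0.41 (SE 0.13, limma adjusted p = 0.0502) against ∆*Firre* and 0.30 (SE 0.13, limma adjusted p = 0.141) against WT. The first was lost without the ∆*Firre* library of mouse 9 or 12 or the *Firre* rescue library of mouse 4 (limma adjusted p between 0.103 and 0.135), while without the *Firre* rescue library of mouse 2 the second was called (0.43, limma adjusted p = 0.0318). *Kif20a* overlaps *Brd8* and *Cdc23* on the genome.

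*Kif23*, which encodes a motor of the central spindle, was at 138, 166, 173, and 176 TPM in WT mice, 145, 141, 146, and 158 in ∆*Firre* mice, and 152, 124, 138, and 152 in *Firre* rescue mice. *Kif2c* was at 26.9, 34.8, 19.5, and 31.8 TPM in WT mice, 22.9, 25.7, 29.9, and 16.9 in ∆*Firre* mice, and 31.1, 28.00, 35.6, and 40.2 in *Firre* rescue mice. *Kif23* spanned a narrow range in every group, with log2 fold changes of −0.06 against ∆*Firre* and −0.20 (SE 0.10, limma adjusted p = 0.182) against WT, where it was called lower without the WT library of mouse 6 (−0.28, limma adjusted p = 0.0677). *Kif2c* varied more than most and was 0.50 (SE 0.21, limma adjusted p = 0.106) against ∆*Firre*. That value was called without the ∆*Firre* library of mouse 11 or the *Firre* rescue library of mouse 2 (limma adjusted p = 0.0817 and 0.0885). *Kif4*, the gene of a chromosome-bound motor, was at 0.24 (limma adjusted p = 0.348).

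Among the spindle genes, *Tpx2* and *Nusap1* rose in both comparisons. *Tpx2*, the gene of a spindle assembly factor that activates Aurora A, was at 86.7, 83.8, 79.2, and 92.5 TPM in WT mice, 91.5, 78.3, 74.7, and 74.7 in ∆*Firre* mice, and 110.4, 93.8, 106, and 128 in *Firre* rescue mice. *Nusap1*, the gene of a protein that binds and stabilizes spindle microtubules, was at 107, 93.1, 107, and 118 TPM in WT mice, 141, 106, 95.6, and 92.2 in ∆*Firre* mice, and 143, 138, 153, and 140.4 in *Firre* rescue mice. Both were higher in every *Firre* rescue than in every WT library, and only the ∆*Firre* library of mouse 8 reached the *Firre* rescue range of *Nusap1*. *Tpx2* was 0.45 (SE 0.11, limma adjusted p = 0.0134) against ∆*Firre* and 0.35 (SE 0.11, limma adjusted p = 0.0441) against WT, and the second call was lost without the WT library of mouse 10 or the *Firre* rescue library of mouse 4 (limma adjusted p = 0.107 and 0.111). *Nusap1* was 0.42 (SE 0.12, limma adjusted p = 0.0342) and 0.44 (SE 0.12, limma adjusted p = 0.0320), and it overlaps *Oip5* on the genome. *Prc1*, which encodes a bundler of midzone microtubules, and *Hmmr*, which encodes a spindle pole protein, were at 0.16 and 0.19 against ∆*Firre* (limma adjusted p = 0.527 and 0.436).

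Of the 7 genes of chromosome structure, 2 rose and *Smc4* fell on TPM as deposited. Condensin is a ring of SMC2 and SMC4 closed by other subunits, among them those encoded by *Ncapd2*, *Ncapg*, and *Ncaph* in condensin I, and it compacts mitotic chromosomes. *Ncaph* was at 59.00, 38.6, 64.5, and 61.2 TPM in WT mice, 60.6, 52.6, 53.2, and 53.7 in ∆*Firre* mice, and 66.2, 82.5, 99.5, and 84.3 in *Firre* rescue mice. *Smc4* (ENSMUSG00000034349.14, chromosome 3, 69004738 to 69034623), whose product pairs with SMC2, was at 287, 284, 371, and 359 TPM in WT mice, 321, 321, 292, and 353 in ∆*Firre* mice, and 216, 231, 283, and 239 in *Firre* rescue mice. *Smc2* was at 158, 121, 159, and 149 TPM in WT mice, 156, 141, 135, and 151 in ∆*Firre* mice, and 144, 125, 155, and 116 in *Firre* rescue mice. The *Firre* rescue libraries were the highest for *Ncaph*, the lowest for *Smc4*, and mixed with the others for *Smc2*. *Ncaph* was 0.57 (SE 0.16, limma adjusted p = 0.0272) against ∆*Firre* and 0.58 (SE 0.16, limma adjusted p = 0.0292) against WT. *Smc4* was −0.41 (SE 0.11, limma adjusted p = 0.0246) and −0.42 (SE 0.11, limma adjusted p = 0.0249), the single fall among the 39 genes, and with each library rescaled by its median ratio over genes it was −0.29 (limma adjusted p = 0.0803) and −0.23 (limma adjusted p = 0.192). With GC content corrected, *Smc4* was at −0.10 and −0.20 and was not called in either comparison. *Smc2* was −0.11 (SE 0.11, limma adjusted p = 0.512) against ∆*Firre*.

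*Ncapd2* was at 141 ± 13.9, 129.8 ± 10.6, and 183 ± 27.8 TPM (SD, n = 4) for WT, ∆*Firre*, and *Firre* rescue mice. It was 0.48 (SE 0.12, limma adjusted p = 0.0148) against ∆*Firre* and 0.37 (SE 0.12, limma adjusted p = 0.0510) against WT, and the second call was lost without the WT library of mouse 6 or 10 or the *Firre* rescue library of mouse 4 (limma adjusted p between 0.105 and 0.126). *Ncapg* was at −0.07 against ∆*Firre* (95% interval −0.39 to 0.26), and at 0.32 (limma adjusted p = 0.203) after the GC correction described below. *Top2a* was at 367, 287, 354, and 346 TPM in WT mice, 354, 271, 299, and 317 in ∆*Firre* mice, and 337, 286, 390.1, and 331 in *Firre* rescue mice. Its groups overlapped throughout, with log2 fold changes of 0.11 against ∆*Firre* (95% interval −0.13 to 0.36) and −0.01 against WT. *Mki67*, the most used of these genes as a marker of cycling cells, was at 267 ± 36.9, 239.8 ± 30.2, and 295 ± 105 TPM. The *Firre* rescue library of mouse 3 held its highest value and that of mouse 2 its lowest, and it was 0.24 (SE 0.20, limma adjusted p = 0.428) against ∆*Firre* and 0.09 (SE 0.20, limma adjusted p = 0.791) against WT. With single libraries left out, *Mki67* ranged from 0.03 to 0.43 against ∆*Firre*. Thus *Top2a* and *Mki67*, among the most abundant of the 39 genes in WT, were not called in any of the 3 comparisons on TPM as deposited.

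**Figure D5:**
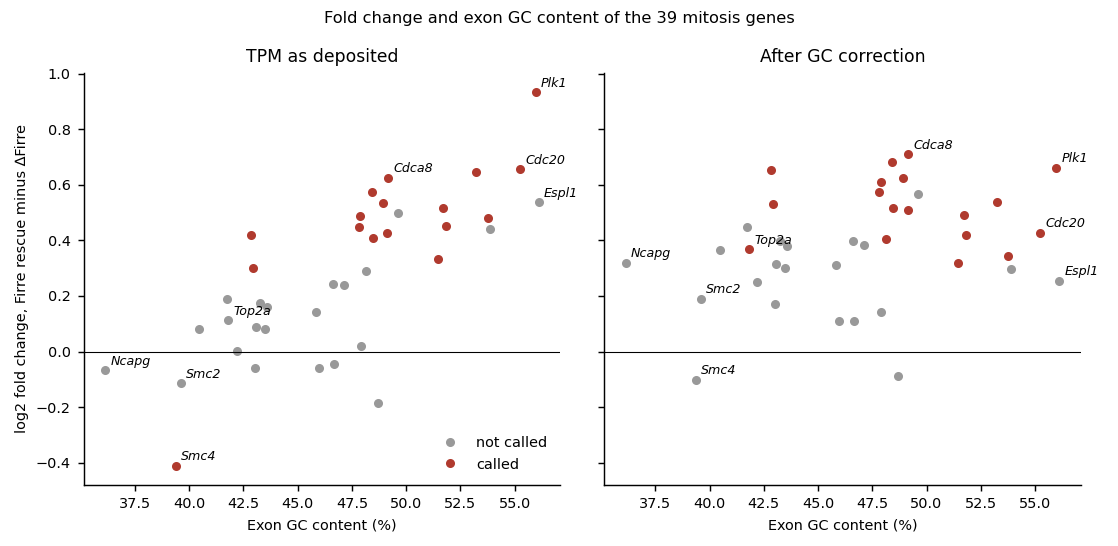
Each point is 1 of the 39 mitosis genes, with exon GC content in percent (x axis) and log2 fold change of *Firre* rescue over ∆*Firre* (y axis), from TPM as deposited (left) and after each library was corrected for GC content (right), red where called with limma. Spearman's rho across the genes is 0.76 on the left and 0.32 on the right, and *Smc4* is called on the left only.

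The fold changes followed the base composition of the genes, as plotted against exon GC content. Across the 39 genes, Spearman's rho between exon GC content and the log2 fold change was 0.76 for *Firre* rescue against ∆*Firre* (0.45 across all genes with a GC value), 0.65 against WT (0.32 across all genes), and −0.30 for ∆*Firre* against WT (−0.36 across all genes), as a description across genes that are not independent replicates. Exon GC content ran from 36.1% in *Ncapg* to 56.1% in *Espl1*, with a median of 47.8%, against 49.5% among all genes with a value. Of the 20 genes at or above the median, 14 were called against ∆*Firre*, all higher. Of the 19 below it, 3 were called, *Ccnb1* and *Nusap1* higher and *Smc4* lower. After the GC correction described next these counts were 15 and 3, all higher, and the 3 below the median were *Ccnb1*, *Nusap1*, and *Top2a*. The median log2 fold change was then 0.50 in the upper set and 0.32 in the lower, against 0.48 and 0.09 before the correction. *Smc4* (39.4% GC), which fell, and *Plk1* (55.97% GC), which rose the most on TPM as deposited, stood near opposite ends.

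After each library was corrected for GC content, 18 of the 39 genes were higher in *Firre* rescue than in ∆*Firre* CLPs, against 5.43% of all genes, and 0 were lower, against 9.87%. In that fit 23 of the 39 had an unadjusted p under 0.05. The 18 held all 16 of the genes above together with *Cdk1* (0.40, limma adjusted p = 0.0919) and *Top2a* (0.37, limma adjusted p = 0.0743). *Smc4* moved to −0.10 (limma adjusted p = 0.648) and was no longer called, *Plk1* to 0.66 (limma adjusted p = 0.0121), below *Cdca8* at 0.71 and *Ncaph* at 0.68, and *Nusap1* to 0.65 (limma adjusted p = 0.00462). The number of genes above 0 was 37 of 39, with a median of 0.38 against −0.09 over all genes with a GC value. Against WT the same 14 genes were higher after the correction as before it, against 3.95% of all genes, and 0 were lower, against 14.6%, since *Smc4* was at −0.20 (limma adjusted p = 0.296). Spearman's rho among the 39 genes was 0.32 against ∆*Firre* and 0.41 against WT after the correction.

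Other genes of the cell cycle, in lists chosen for this comparison, give the setting. Of 65 other mitosis genes, 18 were called higher in *Firre* rescue than in ∆*Firre* CLPs with limma, against 8.58% of all genes, and 1 lower, against 19.3%, with a median log2 fold change of 0.11. Against WT 11 were higher, against 4.82% of all genes, and 2 lower, against 19.4%, and these shares of all genes are the background of the other lists too. After the GC correction 22 of the 64 with a GC value were higher and 0 lower against ∆*Firre*. *Gtse1*, which encodes a spindle-associated protein of G2 and M phase, was at 17.7 ± 4.64, 12.8 ± 2.32, and 30.4 ± 6.94 TPM for WT, ∆*Firre*, and *Firre* rescue mice, and was 1.17 (SE 0.22, limma adjusted p = 0.00444) against ∆*Firre* and 0.75 (SE 0.22, limma adjusted p = 0.0379) against WT. *Cenpm*, the gene of a constitutive centromere protein, was at 23.7 ± 4.998, 24.1 ± 8.58, and 45.7 ± 2.66 TPM, and was 0.95 (SE 0.20, limma adjusted p = 0.00734) and 0.94 (SE 0.20, limma adjusted p = 0.00892). Of 48 genes of DNA replication, which acts in the S phase before mitosis, 11 were higher and 1 lower against ∆*Firre*, with a median of 0.09, and 4 were higher and 3 lower against WT, with a median of −0.02. *Pold1*, the gene of the catalytic subunit of DNA polymerase delta, was 1.04 (SE 0.17, limma adjusted p = 0.00176) against ∆*Firre* (0.48 after the GC correction), *Gins2*, the gene of a subunit of the replicative helicase, was 0.84 (SE 0.17, limma adjusted p = 0.00610), and *Cdc7*, the gene of the kinase that starts replication origins, was −0.57 (SE 0.13, limma adjusted p = 0.0121). No gene of these lists was called between ∆*Firre* and WT with limma: 2 of the 65 and 2 of the 48 had an unadjusted p under 0.05.

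Of 18 regulators of cell cycle transcription, 3 were higher and 1 lower in *Firre* rescue than in ∆*Firre* CLPs. *Mybl2*, which encodes B-MYB, was 0.49 (SE 0.16, limma adjusted p = 0.0486), and *Foxm1*, whose product drives many mitotic genes, was 0.39 (SE 0.15, limma adjusted p = 0.0897). After the GC correction 3 of the 18 were higher, against 5.43% of all genes, and 0 lower, and these did not include *Mybl2* or *Foxm1* (0.25 and 0.24, limma adjusted p = 0.324 and 0.297). Neither was called against WT (limma adjusted p = 0.234 and 0.396). The genes of 2 E2F proteins moved in opposite directions, *E2f2* by 0.999 (SE 0.17, limma adjusted p = 0.00271) against ∆*Firre* and 0.83 (SE 0.17, limma adjusted p = 0.00833) against WT, and *E2f3* by −0.42 (SE 0.13, limma adjusted p = 0.0399) and −0.44 (SE 0.13, limma adjusted p = 0.0374). With GC corrected, *E2f3* was at −0.34 against ∆*Firre* and no longer called there (limma adjusted p = 0.137). Of the 13 tested of 16 listed brakes on the cycle, 0 were higher, against the 8.58% of all genes given above, 6 were lower against ∆*Firre*, against 19.3% of all genes, and 4 were lower against WT, against 19.4%. With GC corrected, 2 were lower in each comparison, against 9.87% and 14.6% of all genes. *Rbl2*, the gene of the pocket protein p130, was at 78.03 ± 11.97, 81.6 ± 2.54, and 46.6 ± 3.47 TPM for WT, ∆*Firre*, and *Firre* rescue mice, and was −0.80 (SE 0.11, limma adjusted p = 0.000693) against ∆*Firre* and −0.72 (SE 0.11, limma adjusted p = 0.00153) against WT. *Cdkn1b*, the gene of the CDK inhibitor p27, was −0.56 (SE 0.15, limma adjusted p = 0.0233) and −0.45 (SE 0.15, limma adjusted p = 0.0598), and after the GC correction neither was called (−0.33 and −0.30, limma adjusted p = 0.180 and 0.201). *Wee1*, the gene of a kinase that holds CDK1 inactive, was −0.52 (SE 0.17, limma adjusted p = 0.0536) and −0.63 (SE 0.17, limma adjusted p = 0.0268).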

How the data were processed

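CLPs were sorted from 12 mice and their poly(A)+ RNA was sequenced, with 4 mice in each of 3 groups. Per the submitters' processing notes and the study's methods, the authors trimmed reads with cutadapt, aligned them to mm10 with TopHat2 (2.1.1), counted them with featureCounts, and deposited TPM, which is scaled to gene length and library total. Strand and multi-mapping settings are not given in the sources used here, so reads of genes that overlap another gene, and of *Ccnb1*, *Ccnb2*, and *Kif4*, which have a pseudogene copy, are uncertain. The study's own test was a count model with refitted p-values, and the TPM deposited by the authors called for a test on the log scale.

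Genes with a mean of at least 1 TPM (14479) were tested on log2(TPM + 1) with limma (3.58.1, R 4.3.3), with all 12 libraries in 1 fit, a variance trend, 2-sided p-values, and Benjamini-Hochberg adjustment over all genes tested. An adjusted p no higher than 0.1 counted as a call. Fold changes on this scale understate those of low genes. P-values measure the spread between mice. Reads were recovered from TPM steps for 99.5% of the genes tested, and read numbers cover counting error only. For the GC correction, log2 levels in each library were fitted on exon GC content (a spline with 4 degrees of freedom) for 13086 genes (90.4%), with GC taken from an older mouse annotation joined by gene ID. Tables were made in Python (3.11.15; scipy 1.17.1, pandas 2.3.3, numpy 2.4.6), and the fit was tested on simulated data.

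The members and all gene lists were chosen with earlier results of these data known. Values in every library are given for the first 2 genes of each role and the 3 largest changes each way in each comparison. In the other lists, named genes are the 2 with the largest change among those called in each comparison, with *Foxm1*, *Mybl2*, and *Cdkn1b*. The alternatives were other pseudocounts, filters, scalings, and nulls, limma-voom on recovered reads, the GC correction, blocks, and leaving out each library.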

Additional observations from a re-analysis of the deposited data

Results flagged for a closer look

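In 6 of 117 sets of 4 libraries (39 genes in 3 groups), 1 library stood apart from the other 3 by the 95% limit of Dixon's ratio, where chance gives about 5.85. The values are log2(TPM + 1). In the WT library of mouse 8, *Aurka* was the highest of its group at 5.28 (others at 5.21), whereas *Cdca8* at 5.21 (others 5.48 to 5.53), *Kif11* at 7.15 (others 7.48 to 7.54), and *Prc1* at 4.81 (others 5.52 to 5.65) were the lowest. That library also had the fewest recovered reads of the 12, 10792435. In the ∆*Firre* library of mouse 8, *Hmmr* at 5.88 (others 5.53 to 5.56) and *Ncaph* at 5.94 (others 5.74 to 5.77) were the highest of their group.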

How the results depend on the processing

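Of the 39 genes, 0 were called between ∆*Firre* and WT with limma in any alternative run. At an unadjusted p under 0.05 there were 0 of 39, except 2 without the ∆*Firre* library of mouse 8 and 1 without the WT library of mouse 6. WT and ∆*Firre* share the mouse numbers 8 and 11, but deviations of same-numbered libraries did not correlate (−0.03 and −0.04), so no pairing was assumed. With the replicate block, fitted to WT and ∆*Firre* alone, 0 of the 39 and 1 of all genes were called, and the fit to these groups without the block also called 0 and 1. Leaving out each library in turn gave 14 to 18 genes called for *Firre* rescue against ∆*Firre* and 11 to 16 against WT, with 11 without the WT library of mouse 10 or the *Firre* rescue library of mouse 4. The empirical null gave 0 and 0 genes in place of 17 and 15, with a null SD of 2.01 and 1.93, and the cause was not tested. The remaining alternatives called 16 to 21 against ∆*Firre* and 13 to 19 against WT. Against WT, a fit to only the groups compared lost *Ccnb2*, *Bub1b*, and *Ncapd2* and added *Aurka*. *Ccnb2* was also lost there with no filter on low values or no variance trend. Median-ratio scaling moved the median of all genes from −0.16 to −0.05 against ∆*Firre* and from −0.21 to −0.03 against WT, and the share of called genes that were higher from 30.7% to 50.2% and from 19.9% to 50.6%. Under it all 17 calls against ∆*Firre* remained and *Cdk1*, *Ccnf*, *Espl1*, and *Kif2c* were added. Against WT 14 of 15 remained, without *Smc4*, and *Cdk1*, *Aurka*, *Espl1*, and *Kif20a* were added.

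Some values not called on TPM as deposited changed sign, and the cause was not tested. Against ∆*Firre*, median-ratio scaling gave *Pttg1* 0.069, *Cenpe* 0.059, *Kif23* 0.060, *Smc2* 0.0049, and *Ncapg* 0.050, voom gave *Pttg1* 0.033, *Cenpe* 0.016, *Kif23* 0.0081, and *Ncapg* 0.0028, and the GC correction gave *Pttg1* 0.11, *Cenpe* 0.17, *Kif23* 0.11, *Smc2* 0.19, and *Ncapg* 0.32. Against WT, median-ratio scaling gave *Bub1* 0.12, *Cenpa* 0.050, *Cenpe* 0.076, *Top2a* 0.18, *Smc2* 0.069, and *Ncapg* 0.073, voom gave *Bub1* 0.057, *Cenpe* 0.0040, and *Top2a* 0.11, and the GC correction gave *Bub1* 0.13, *Cenpe* 0.043, *Top2a* 0.16, *Smc2* 0.097, and *Ncapg* 0.17. Leaving out 1 library gave ranges across 0 against ∆*Firre* for *Cdc25c* (−0.22 to 0.21), *Bub1* (−0.0076 to 0.18), *Pttg1* (−0.17 to 0.14), *Cenpe* (−0.22 to 0.094), *Kif11* (−0.058 to 0.089), *Kif23* (−0.095 to 0.0027), *Mad2l1* (−0.016 to 0.19), *Ttk* (−0.025 to 0.19), and *Ncapg* (−0.15 to 0.037), and against WT for *Cdc25c* (−0.0070 to 0.43), *Bub1* (−0.16 to 0.0066), *Cenpe* (−0.27 to 0.043), *Kif11* (−0.090 to 0.088), *Top2a* (−0.090 to 0.061), *Ttk* (−0.054 to 0.15), *Cenpf* (−0.11 to 0.20), and *Mki67* (−0.12 to 0.28). Each value rests on at least 113 reads, and the part of depth in these limits was not tested.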
